A study of Mus musculus with 10 samples.

Results

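Wnt ligands, their Frizzled receptors and the secreted antagonists of both were followed in whole mouse lens. A gene was taken as a member when a probe set carried its symbol alone and that symbol began with Wnt, Fzd, Sfrp or Dkk followed by a digit, which gave 38 of the 18193 genes named by the array, measured by 75 probe sets. There were 19 ligands, 10 Frizzled receptors and 8 antagonists of the Sfrp and Dkk families. The rule also took Fzd10os, an RNA transcribed from the strand opposite Fzd10, which is no receptor and is given apart. Each gene is represented by its brightest probe set (highest mean of the 10 arrays). Of the 38 members, 28 passed the filter on dim genes and were tested: 11 ligands, 9 receptors, 7 antagonists and Fzd10os.

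The lenses were wild type (WT) or came from mice conditionally null for Klf4 (Klf4CN in the labels), a zinc finger transcription factor of the Kruppel-like family. They came from embryos at day 16.5 of gestation (E16.5) or from young adults at postnatal day 56 (PN56). Each E16.5 sample was a separate preparation that pooled the lenses of 5 embryos, with 3 samples per genotype. Each PN56 sample pooled those of 3 adults, with 2 samples per genotype. The Cre line, the promoter that drives it and the strain are not named in the labels. RNA from each sample was hybridised to 1 Affymetrix mouse 430 2 array, and the 4 groups allowed comparisons of genotype at each age, of age within each genotype, and of the genotype effect between ages.

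Wnt proteins are secreted, lipid-modified glycoproteins that bind the cysteine-rich domain of Frizzled, a receptor with several membrane-spanning helices. With the co-receptors Lrp5 and Lrp6 this stabilises beta-catenin, which acts with TCF and LEF factors on target genes, while other Wnt and Frizzled pairs act through planar cell polarity. Sfrp proteins are soluble, carry a Frizzled-like domain and bind Wnts. Dkk proteins act mostly through the Lrp co-receptors, with Dkk3 a divergent member. In the lens, Wnt signalling is known for its place in the epithelium and in the alignment of fibre cells.

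Crystallin markers of the lens were bright on all 10 arrays. The summed signal of 12 lens markers, among them crystallins and fibre membrane genes, lay between 227940 and 297208 at E16.5, between 796345 and 900490 on the PN56 WT arrays and between 596581 and 607017 on the PN56 arrays labelled Klf4CN. The 12 did not move alike. Foxe3 read 258 to 1083, and Foxe3 and Prox1 had lower means at PN56 than at E16.5 in both genotypes. Klf4 itself had signals of 774, 1015 and 428 on the E16.5 WT arrays, 1360, 805 and 1072 on the E16.5 arrays labelled Klf4CN, 156 and 214 on the PN56 WT arrays, and 732 and 702 on the PN56 arrays labelled Klf4CN. Its signal was thus higher at PN56 under the Klf4CN label (log2 difference 1.88, limma adjusted p = 0.0042) and did not pass the test at E16.5 (0.59, adjusted p = 0.9997). Where its probe set lies relative to the deleted part is not stated by the labels, so this signal is no check of the deletion, and groups are named by their labels throughout. A control probe set of 18S ribosomal RNA read 1155 to 2413 on E16.5 WT arrays and 20897 to 22776 on E16.5 arrays labelled Klf4CN. At PN56 it read 528 and 2870 in WT and from 5700 to 11005 under the Klf4CN label, a log2 difference of 2.66. This 5' probe set thus moved with genotype at both ages. The 3' and middle 18S probe sets were also higher under the Klf4CN label at E16.5, but their genotypes overlapped at PN56. There the 3' one read 1205 and 3309 in WT against 2375 and 3510, and the middle one 1178 and 3253 against 1595 and 2330. The part of the 18S controls in the genotype results was not tested. The dap spike control read 4908 to 7005 on all E16.5 arrays and 2.6 to 59.1 on all PN56 arrays, so age cannot be told apart from RNA preparation, nor from the size of the pool.

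The 250 bases upstream of the start of 5 members that the results turn on are shown, from RefSeq on build GRCm38.p6, because Klf4 and TCF/LEF factors read short motifs in such regions. Capitals mark CACCC or its complement GGGTG, the core of Kruppel-like factor motifs, and CTTTG or its complement CAAAG, the core of TCF/LEF motifs. Wnt6 is the ligand whose signal was higher at PN56 under the Klf4CN label. Wnt7a and Wnt9a rose with age in both genotypes, and Fzd7 and Sfrp2 fell. For Sfrp2, Wnt6 and Wnt9a the window lies wholly or partly inside the span that RefSeq gives for all transcripts of the gene.
Wnt6, chr1:74771642-74771891, plus strand: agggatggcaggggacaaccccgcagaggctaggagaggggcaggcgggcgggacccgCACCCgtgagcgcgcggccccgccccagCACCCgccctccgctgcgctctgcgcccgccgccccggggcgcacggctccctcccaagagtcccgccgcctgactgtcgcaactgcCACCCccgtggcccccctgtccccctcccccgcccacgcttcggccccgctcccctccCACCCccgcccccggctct
Wnt7a, chr6:91411354-91411603, minus strand: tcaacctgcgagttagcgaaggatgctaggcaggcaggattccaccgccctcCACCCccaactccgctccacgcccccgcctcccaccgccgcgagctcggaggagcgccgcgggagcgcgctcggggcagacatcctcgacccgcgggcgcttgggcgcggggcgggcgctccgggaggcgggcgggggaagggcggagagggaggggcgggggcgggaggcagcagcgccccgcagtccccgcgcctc
Wnt9a, chr11:59306680-59306929, plus strand: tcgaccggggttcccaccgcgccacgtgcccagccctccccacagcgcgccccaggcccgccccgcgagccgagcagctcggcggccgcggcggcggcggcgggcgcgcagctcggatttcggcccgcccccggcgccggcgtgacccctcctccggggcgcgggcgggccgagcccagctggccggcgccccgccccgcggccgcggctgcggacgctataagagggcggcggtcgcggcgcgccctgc
Fzd7, chr1:59481897-59482146, plus strand: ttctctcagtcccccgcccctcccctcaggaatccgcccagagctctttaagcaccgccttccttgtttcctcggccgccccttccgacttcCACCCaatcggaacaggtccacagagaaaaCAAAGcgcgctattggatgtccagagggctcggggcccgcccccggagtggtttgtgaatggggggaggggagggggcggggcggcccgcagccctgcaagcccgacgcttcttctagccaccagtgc
Sfrp2, chr3:83766071-83766320, plus strand: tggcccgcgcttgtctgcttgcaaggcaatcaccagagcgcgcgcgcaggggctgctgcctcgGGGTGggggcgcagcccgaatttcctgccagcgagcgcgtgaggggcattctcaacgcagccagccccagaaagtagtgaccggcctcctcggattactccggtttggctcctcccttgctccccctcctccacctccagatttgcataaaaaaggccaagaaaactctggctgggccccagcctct

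The Wnt6 window held 4 matches to CACCC, those of Wnt7a, Fzd7 and Sfrp2 held 1 each, and that of Wnt9a held 0. G and C made up 63.6% to 84.4% of these windows, with Wnt6 at 79.6%. How many of all windows held 4 or more matches was not counted. CTTTG had 1 match, in the Fzd7 window. Both strands were searched, and neither motif contains the other. Among all 32851 windows of 250 bases in the table, 17087 (52%) held CACCC and 15958 (48.6%) held CTTTG. Of the 28 windows found for 25 of the members outside chromosome 18, 19 (67.9%) held CACCC and 12 (42.9%) held CTTTG. Members on chromosome 18, Wnt8a and Fzd8, were left out of this count, and no such exclusion was applied to the 32851 windows. A match describes the letters of the window and is not a binding site.

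The ligand probe sets with the highest mean signal were those of Wnt7b, Wnt7a and Wnt5b, the receptor ones those of Fzd1, Fzd6 and Fzd3, and the antagonist ones those of Sfrp1, Dkk3 and Sfrp2. Probe sets differ in how well they hybridise, so no order of transcript levels between genes is read from this. The 10 members under the filter were Wnt1, Wnt2, Wnt2b, Wnt3, Wnt3a, Wnt8a, Wnt9b, Wnt10b, Fzd9 and Dkk4. Their signals ran from 2.2 to 121.6 over the 10 arrays, and they were not tested. The filter stood at a mean signal of 54.06, with Fzd8 (55.91) the nearest member above it and Wnt8a (51.52) the nearest below.

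**Figure D1:**
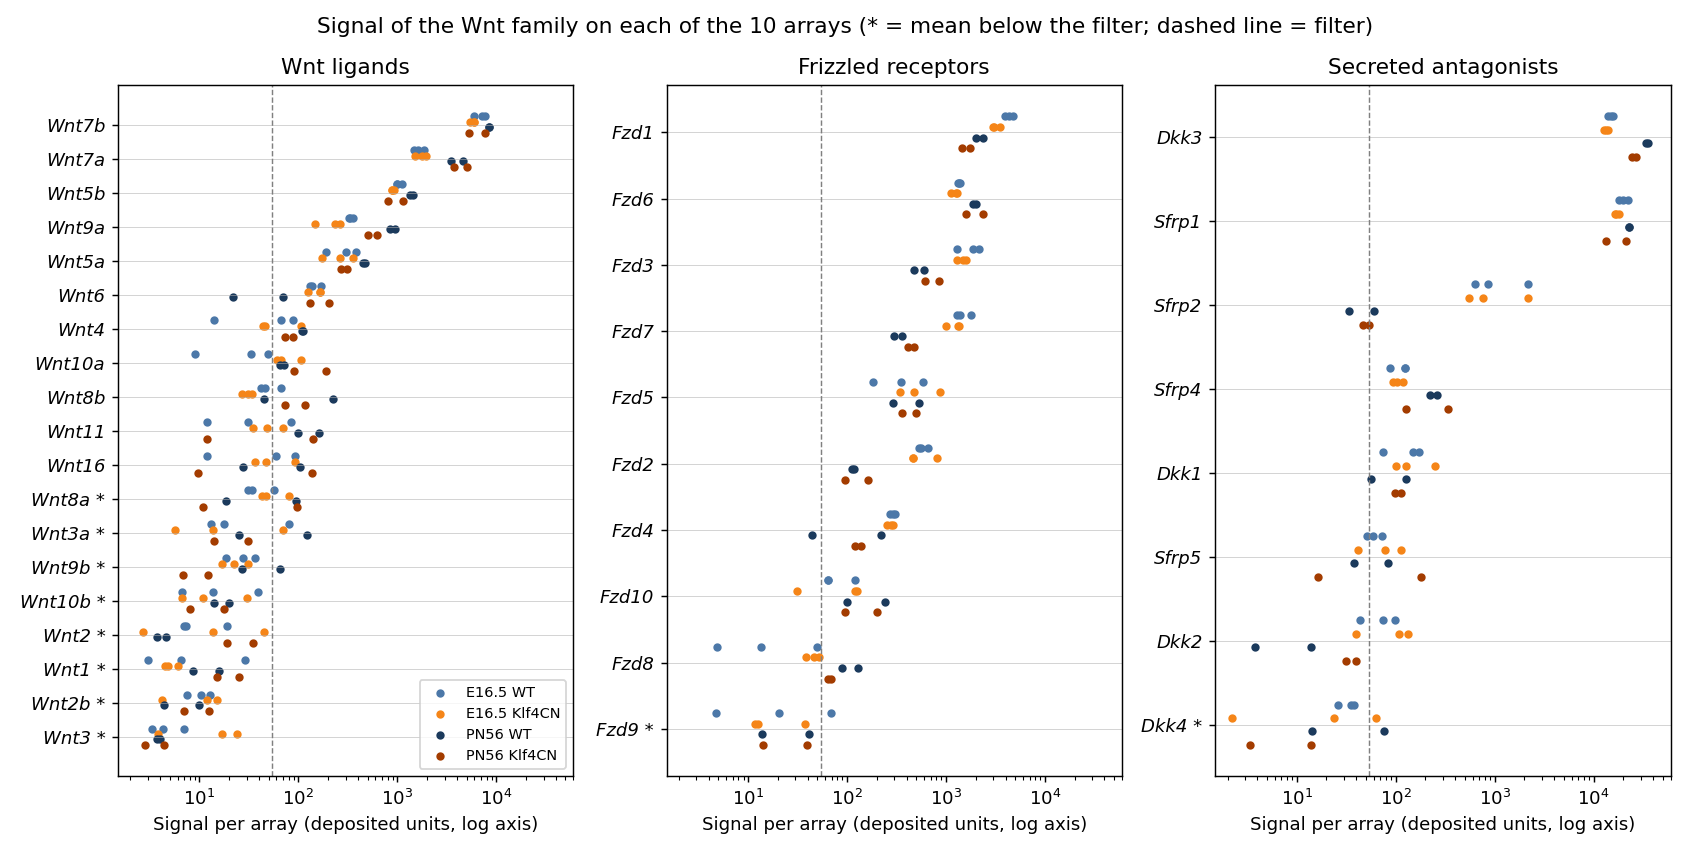
Deposited signal (x axis, log scale) of the ligands, receptors and antagonists, 1 panel per role, with 1 point per array, colours for the 4 groups, a dashed line at the filter and a star for members under it. Sfrp2, Fzd2 and Fzd7 sit lower on all 4 PN56 arrays than on all 6 E16.5 arrays, and Dkk3, Wnt7a and Wnt9a sit higher.

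More members were called with age than with genotype. In WT lens 15 of the 28 tested members (53.6%) were called between E16.5 and PN56, 7 higher and 8 lower at PN56, against 56.7% of all 13444 genes tested (25.8% higher and 30.9% lower). Calls required a Benjamini-Hochberg adjusted p below 0.05 in a limma fit of log2(signal + 16) over all 10 arrays. In the lenses labelled Klf4CN 10 of 28 (35.7%) were called, 5 higher and 5 lower, against 53.1% of all genes (22.3% higher and 30.8% lower). The share of members called was close to the background in WT and below it under the Klf4CN label. Of the called members, 9 were shared (9 of 15 and 9 of 10), each with the same direction: Wnt7a, Wnt9a, Fzd6 and Dkk3 were higher at PN56, and Fzd1, Fzd2, Fzd3, Fzd7 and Sfrp2 were lower. The 2 comparisons share no array, and 23 of 28 members had the same sign in both, against 82.1% of all genes. Groups did not overlap between ages for 21 of 28 members in WT (75%) and for 14 of 28 under the Klf4CN label (50%), against 71.1% and 70.5% of all genes.

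By role, the median difference was above 0 for the ligands and below 0 for the receptors in both genotypes. These signs did not hold under every setting: with arrays centred on their medians the ligand median under the Klf4CN label was -0.17, and with all probe sets of a gene averaged the receptor medians were 0.23 in WT and 0.26 under the Klf4CN label. The share of ligands called higher (27.3% and 18.2%) was close to or below that of all genes (25.8% and 22.3%). The share of receptors called lower (55.6% and 44.4%) stood beside 30.9% and 30.8% of all genes. Of 11 ligands tested, 3 rose and 1 fell in WT (median log2 difference 0.86), and 2 rose and 0 fell under the Klf4CN label (median 0.17). Of 9 Frizzled receptors, 2 rose and 5 fell in WT (median -0.99), and 1 rose and 4 fell under the Klf4CN label (median -0.98). Fzd1, Fzd3 and Fzd4, counted as lower in WT, each had a further probe set that went the other way. Of 7 antagonists, 2 rose and 2 fell in WT (median -0.06), and 1 rose and 1 fell under the Klf4CN label (median -0.15). Fzd8, Dkk2 and Sfrp2, counted here, had group means past the filter only at the age where they were higher. The median over all genes tested was -0.04 in WT and -0.10 under the Klf4CN label. These values rest on the deposited scaling, which sets the trimmed mean of each array to 500. Centring each array on its median instead moved the median of all genes to -0.55 in WT and -0.44 under the Klf4CN label, and the members called to 4 higher and 8 lower in WT and to 4 higher and 6 lower under the Klf4CN label.

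**Figure D2:**
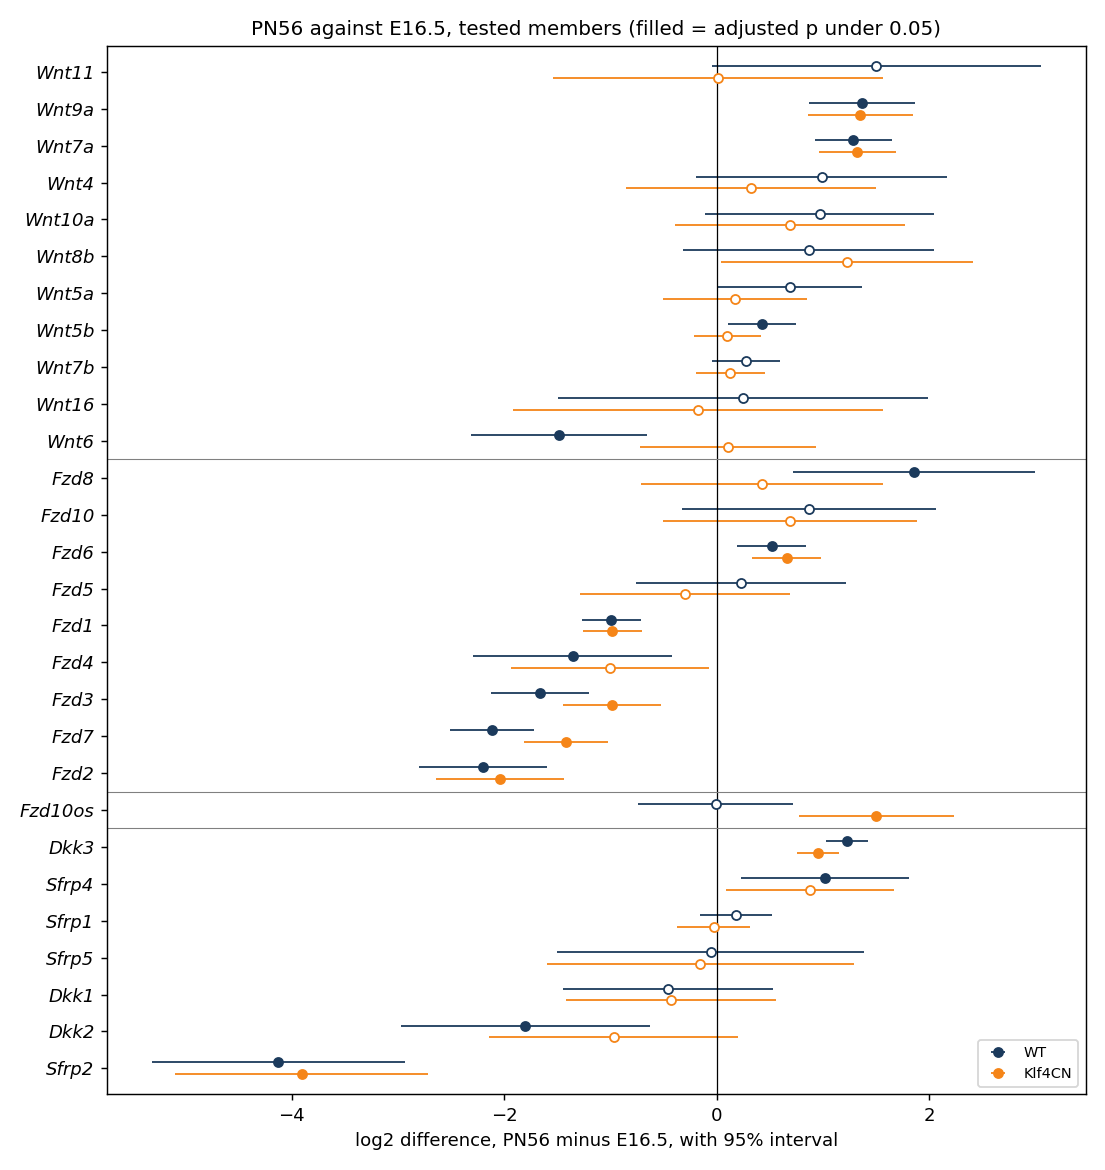
Log2 difference between PN56 and E16.5 for each of the 28 tested members, in WT and in lenses labelled Klf4CN, with 95% confidence intervals from the limma fit and filled points for called members. Sfrp2 lies lowest in both genotypes (-4.13 and -3.91), Fzd1, Fzd2, Fzd3 and Fzd7 are filled under 0 in both, and 10 of the 11 ligands lie above 0 in each genotype.

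Wnt7a, a ligand that can act through beta-catenin or apart from it, read 1631, 1471 and 1865 in E16.5 WT, 1794, 1517 and 1926 in E16.5 Klf4CN, 4623 and 3518 in PN56 WT, and 5067 and 3765 in PN56 Klf4CN. All 4 PN56 arrays were above all 6 E16.5 arrays, and the genotypes overlapped at each age. The log2 difference between ages was 1.28 ± 0.17 in WT and 1.32 ± 0.17 under the Klf4CN label (SE, limma adjusted p = 3.68e-05 and 3.14e-05). Wnt9a, which maps next to Wnt3a, read 330, 327 and 355 in E16.5 WT, 263, 147 and 237 in E16.5 Klf4CN, 850 and 940 in PN56 WT, and 618 and 509 in PN56 Klf4CN. The ages did not overlap in either genotype, and at each age the arrays labelled Klf4CN were all below the WT arrays. The rise with age was 1.37 ± 0.23 in WT and 1.35 ± 0.23 under the Klf4CN label (adjusted p = 2.7e-04 and 3.1e-04).

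Wnt5b, a ligand known mainly for signalling outside the beta-catenin route, read 1104, 999 and 990 in E16.5 WT, 927, 873 and 881 in E16.5 Klf4CN, 1425 and 1353 in PN56 WT, and 1132 and 811 in PN56 Klf4CN. Its rise in WT (0.43 ± 0.15, adjusted p = 0.0249) was small, and the corresponding value under the Klf4CN label was 0.10 ± 0.15 (adjusted p = 0.587). The WT call was lost without E16.5 WT array 2 or 3 or without either PN56 WT array, with values from 0.39 to 0.46 and adjusted p up to 0.107. With arrays centred on their medians the WT value was -0.09 (adjusted p = 0.705). Wnt6, a ligand known from surface ectoderm, read 168, 136 and 131 in E16.5 WT, 167, 124 and 166 in E16.5 Klf4CN, 21.9 and 70.6 in PN56 WT, and 130 and 205 in PN56 Klf4CN. Both PN56 WT arrays were below the other 8. In WT it fell by 1.49 on the log2 scale (SE 0.38, adjusted p = 0.0053), and under the Klf4CN label the difference was 0.11 ± 0.38 (adjusted p = 0.831). Without PN56 WT array 1 the WT value was -0.89 (adjusted p = 0.059).

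Wnt7b, a close relative of Wnt7a, read 7188, 5984 and 7704 in E16.5 WT, 6003, 5425 and 5992 in E16.5 Klf4CN, 8378 and 8382 in PN56 WT, and 7656 and 5238 in PN56 Klf4CN. Neither age comparison passed the test on this probe set (0.28 and 0.13, adjusted p = 0.132 and 0.497). Its second, dimmer probe set read 348 to 490 in E16.5 WT, 353 to 442 in E16.5 Klf4CN, 2371 and 2555 in PN56 WT, and 1214 and 2182 in PN56 Klf4CN, a log2 difference of 2.52 in WT and 2.05 under the Klf4CN label. The probe sets of Wnt7b thus disagree on the size of its change with age. The ligands past the filter that were called in no comparison, Wnt4, Wnt5a, Wnt8b, Wnt10a, Wnt11 and Wnt16, had signals from 9.0 to 472 over all arrays on their brightest probe sets. A further probe set of Wnt5a, a ligand related to Wnt5b, was higher at PN56 in both genotypes when tested by itself (1.45 in WT and 1.397 under the Klf4CN label, adjusted p = 0.0050 and 0.0068). One of Wnt4 read 149, 132 and 142 in E16.5 WT, 27.2, 32.9 and 28.3 in E16.5 Klf4CN, 12.3 and 20 in PN56 WT, and 11.8 and 89.1 in PN56 Klf4CN, and was lower at PN56 in WT (-2.30, adjusted p = 0.0034).

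Of the 9 Frizzled receptors tested, Fzd1, Fzd2, Fzd3 and Fzd7 were lower at PN56 in both genotypes on their brightest probe sets. Fzd7, of the subfamily it shares with Fzd1 and Fzd2, read 1388, 1782 and 1306 in E16.5 WT, 1349, 1313 and 1012 in E16.5 Klf4CN, 298 and 363 in PN56 WT, and 480 and 410 in PN56 Klf4CN. The ages did not overlap, and the log2 difference of Fzd7 was -2.12 ± 0.18 in WT and -1.42 ± 0.18 under the Klf4CN label (adjusted p = 1.14e-06 and 3.55e-05). Fzd2 read 562, 656 and 534 in E16.5 WT, 466, 814 and 468 in E16.5 Klf4CN, 117 and 112 in PN56 WT, and 95.6 and 162 in PN56 Klf4CN. Its ages did not overlap either, and it fell in both genotypes (-2.20 ± 0.28 and -2.04 ± 0.28, adjusted p = 2.97e-05 and 6.03e-05). Fzd1 read 4369, 3991 and 4790 in E16.5 WT, 3533, 3024 and 3021 in E16.5 Klf4CN, 2016 and 2372 in PN56 WT, and 1759 and 1464 in PN56 Klf4CN. It fell in both genotypes (-0.99 ± 0.13 and -0.98 ± 0.13, adjusted p = 3.47e-05 and 4.22e-05), with no overlap between ages. The second Fzd1 probe set, with a mean signal of 98.96, went the other way (1.45 and 1.48), so the mean of both probe sets gave 0.23 in WT and 0.25 under the Klf4CN label.

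Fzd3 and Fzd6 are the Frizzled receptors best known for planar cell polarity, and their brightest probe sets moved in opposite directions. Fzd3 read 1282, 2140 and 1880 in E16.5 WT, 1476, 1582 and 1283 in E16.5 Klf4CN, 479 and 598 in PN56 WT, and 841 and 613 in PN56 Klf4CN. It fell in both genotypes (-1.66 ± 0.21 in WT and -0.99 ± 0.21 under the Klf4CN label, adjusted p = 3.24e-05 and 0.0018). A further Fzd3 probe set, with a mean signal of 353, went the other way, by 0.33 in WT and 0.79 under the Klf4CN label. Those with means of 594 and 216 went down in both genotypes. Fzd6 read 1390, 1315 and 1340 in E16.5 WT, 1301, 1131 and 1261 in E16.5 Klf4CN, 1992 and 1882 in PN56 WT, and 2369 and 1605 in PN56 Klf4CN. It rose by 0.52 ± 0.15 in WT and by 0.66 ± 0.15 under the Klf4CN label (adjusted p = 0.0106 and 0.0026), again with no overlap between ages. The Fzd6 calls depended on the scaling: with arrays centred on their medians its values were 0.0012 and 0.32 (adjusted p = 0.996 and 0.171). Without PN56 WT array 1 the WT value was 0.48 (adjusted p = 0.063), and without PN56 Klf4CN array 1 the other was 0.38 (adjusted p = 0.037).

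Fzd4, the receptor that also binds norrin and is known from blood vessels of the eye, read 306, 289 and 273 in E16.5 WT, 294, 256 and 277 in E16.5 Klf4CN, 43.9 and 221 in PN56 WT, and 137 and 122 in PN56 Klf4CN. All PN56 arrays were below all E16.5 arrays, but the PN56 WT arrays differed widely. The WT value was -1.36 ± 0.43 (adjusted p = 0.0170), -0.36 (adjusted p = 0.235) without PN56 WT array 1 and -2.35 without PN56 WT array 2. Under the Klf4CN label it was -1.01 ± 0.43 (adjusted p = 0.0660). A second Fzd4 probe set, with a mean signal of 188 against 222 for the brightest, went the other way in both genotypes. It rose by 1.41 in WT and 0.89 under the Klf4CN label. With every probe set tested without a filter, its limma adjusted p was 0.0030 and 0.040, against 0.027 and 0.096 for the brightest. The direction of Fzd4 thus depends on the probe set, and the mean of the probe sets gave 0.32 in WT. Fzd8, a receptor close to Fzd5, was dim, with 13.4, 49.8 and 4.9 in E16.5 WT, 38.7, 52.7 and 46.5 in E16.5 Klf4CN, 89.9 and 130 in PN56 WT, and 68.9 and 64.4 in PN56 Klf4CN. Its group means were 22.7 and 46.0 at E16.5 and 109.9 and 66.65 at PN56, so Fzd8 passed the filter only through PN56. Its age call is thus not independent of the filter. It rose in WT (1.86 ± 0.52, adjusted p = 0.0093; 1.63, adjusted p = 0.063, without PN56 WT array 2) and did not pass the test under the Klf4CN label (0.42, adjusted p = 0.521). Fzd5 and Fzd10 were called in no comparison, with signals from 31.0 to 878.

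Sfrp2, a soluble Wnt-binding antagonist known from embryonic eye, showed the largest change with age among the 28 tested members. It read 864, 2187 and 628 in E16.5 WT, 772, 2168 and 558 in E16.5 Klf4CN, 59.9 and 34 in PN56 WT, and 54 and 46.9 in PN56 Klf4CN. The lowest E16.5 array was far above the highest PN56 array, and the array numbered 2 was the highest at E16.5 in both genotypes. Sfrp2 fell in both genotypes (-4.13 ± 0.55 in WT and -3.91 ± 0.55 under the Klf4CN label, adjusted p = 4.48e-05 and 7.57e-05). The same 2 arrays were the highest in Fzd5 and in the summed signal of 8 retinal progenitor and neuron markers (of 10 listed), which read 325, 7718 and 3743 in E16.5 WT, 4558, 14695 and 7072 in E16.5 Klf4CN, and 1654 to 2048 at PN56. Without both of these arrays the Sfrp2 values were -3.61 in WT and -3.34 under the Klf4CN label, and both passed the test. Their part in the Sfrp2 result was not tested.

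**Figure D3:**
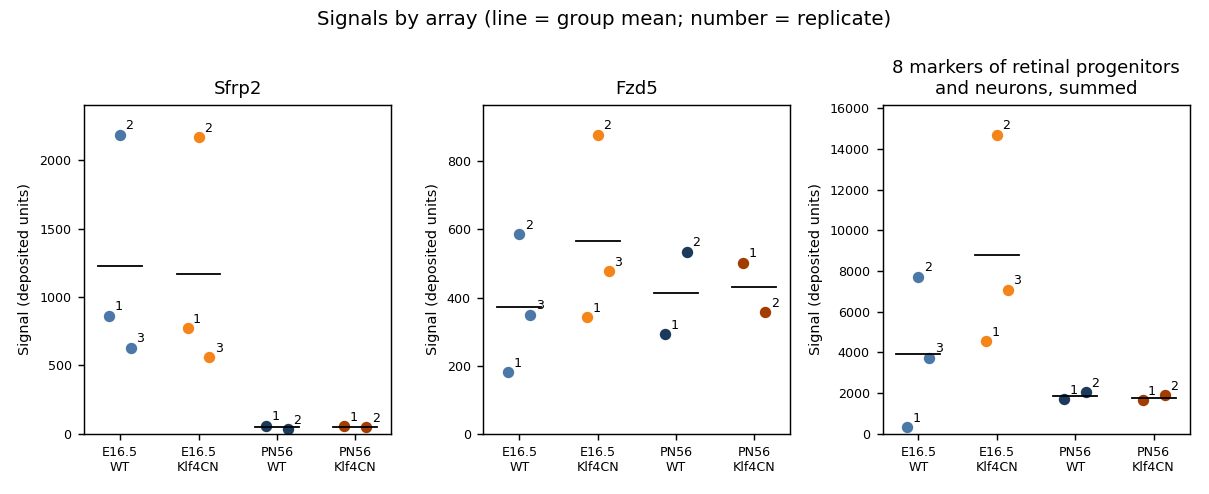
Signals (y axes, linear, from 0) of Sfrp2, of Fzd5 and of 8 retinal progenitor and neuron markers summed, 1 panel each, with 1 point per array labelled by its replicate number and a line at each group mean. At E16.5 the array numbered 2 is the highest of its genotype in all 3 panels, and the 4 PN56 arrays sit at the bottom of the Sfrp2 panel at 34 to 59.9.

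Dkk3 moved the other way. It read 15648, 14888 and 14102 in E16.5 WT, 13950, 13255 and 12647 in E16.5 Klf4CN, 35849 and 33828 in PN56 WT, and 27130 and 24350 in PN56 Klf4CN. The ages did not overlap, and Dkk3 rose by 1.23 ± 0.09 in WT and by 0.95 ± 0.09 under the Klf4CN label (adjusted p = 2.95e-07 and 2.88e-06). Its second probe set rose as well, by 1.53 and 1.74. The 3' control probe sets of Actb and Gapdh, which are bright like Dkk3, were also higher at PN56. The differences were 1.15 and 0.90 in WT and 0.85 and 0.85 under the Klf4CN label. The 3' probe set of the CreX spike was higher at PN56 too, by 1.03 in WT and 0.65 under the Klf4CN label. The part of these controls in the Dkk3 result was not tested.

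Sfrp1 read 19931, 18091 and 22286 in E16.5 WT, 17926, 16699 and 16651 in E16.5 Klf4CN, 22597 and 22814 in PN56 WT, and 21154 and 13248 in PN56 Klf4CN, and on this probe set did not pass the test with age (0.18 and -0.03, adjusted p = 0.347 and 0.888). Its 4 further probe sets gave another picture. With every probe set tested by itself, 2 of them were higher at PN56 in WT (0.75 and 0.76, adjusted p = 0.0087 and 0.0042) and 3 under the Klf4CN label (0.86, 1.09 and 0.52, adjusted p = 2.95e-05, 0.0108 and 0.034). Dkk2, an antagonist that binds the Lrp co-receptors, read 98.5, 43.6 and 74 in E16.5 WT, 108, 39.6 and 134 in E16.5 Klf4CN, 14.1 and 3.8 in PN56 WT, and 31.4 and 40 in PN56 Klf4CN. Its group means were 72.0 and 93.7 at E16.5 and 8.95 and 35.7 at PN56, so Dkk2 passed the filter only through E16.5. Its age call is thus not independent of the filter. It was dim everywhere and fell by 1.80 in WT (SE 0.54, adjusted p = 0.0125; -1.498, adjusted p = 0.071, without PN56 WT array 2). Under the Klf4CN label the value was -0.97 (adjusted p = 0.147). Sfrp4 read 124, 87.6 and 124 in E16.5 WT, 120, 94.4 and 104 in E16.5 Klf4CN, 262 and 221 in PN56 WT, and 127 and 335 in PN56 Klf4CN. Its rise in WT was 1.02 ± 0.36 (adjusted p = 0.0302), and it was lost without E16.5 WT array 2 or without either PN56 WT array, with values from 0.87 to 1.14 and adjusted p up to 0.128. With quantile normalization it was 0.79 (adjusted p = 0.0997) and with arrays centred on their medians 0.50 (adjusted p = 0.237). Dkk1 and Sfrp5 were called in no comparison, with signals from 16.4 to 253.

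Markers of other tissues moved with age beside these genes. The summed signal of 6 endothelial markers lay between 3170 and 5365 at E16.5 and between 312 and 478 at PN56, that of 7 macrophage markers between 3879 and 6534 and between 1476 and 2546, and that of 8 mesenchymal markers (of 9 listed) between 5652 and 6278 and between 3020 and 4539. The mesenchymal markers did not move alike. In WT the mean of Pdgfra went from 3557 at E16.5 to 1747 at PN56, that of Pdgfrb from 677 to 1670 and that of Dcn from 81 to 205. Pdgfrb and Dcn also had higher means at PN56 under the Klf4CN label, and the remaining mesenchymal markers had lower means at PN56 in both genotypes. Photoreceptor markers (6 of 7 listed) summed to 179 to 430 at E16.5 and 3585 to 12678 at PN56. Pigment cell markers (8 of 8) summed to 922 to 7758 at E16.5, 6790 and 8502 in PN56 WT, and 3615 and 3258 in PN56 Klf4CN. None of these markers was listed at 0, the lowest deposited signal on any array being 0.1. Their part in the age results was not tested, and in whole lens RNA fewer cells of a type and less RNA per cell cannot be told apart.

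At E16.5 no member was called between genotypes (0 of 28 with limma), against 1 of 13444 genes (0.00744%). At an unadjusted limma p under 0.05 there were 3 of 28 members, against 610 of 13444 genes. The 3 were Fzd1 (-0.46, adjusted p = 0.662), Wnt9a (-0.64, adjusted p = 0.937) and Wnt10a (1.09, adjusted p = 0.9997). On their brightest probe sets the other members had values from -0.52 to 0.85. A further Wnt4 probe set, with a mean signal of 64.57, stood at -1.79, where the brightest was at 0.27. It read 132 to 149 in E16.5 WT and 27.2 to 32.9 in E16.5 Klf4CN. It was not called when every probe set was tested without a filter (limma adjusted p = 0.99996). Over the brightest probe sets of the 28 members, the median was -0.05. Groups did not overlap for 8 of 28 members (28.6%), against 11.9% of all genes.

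**Figure D4:**
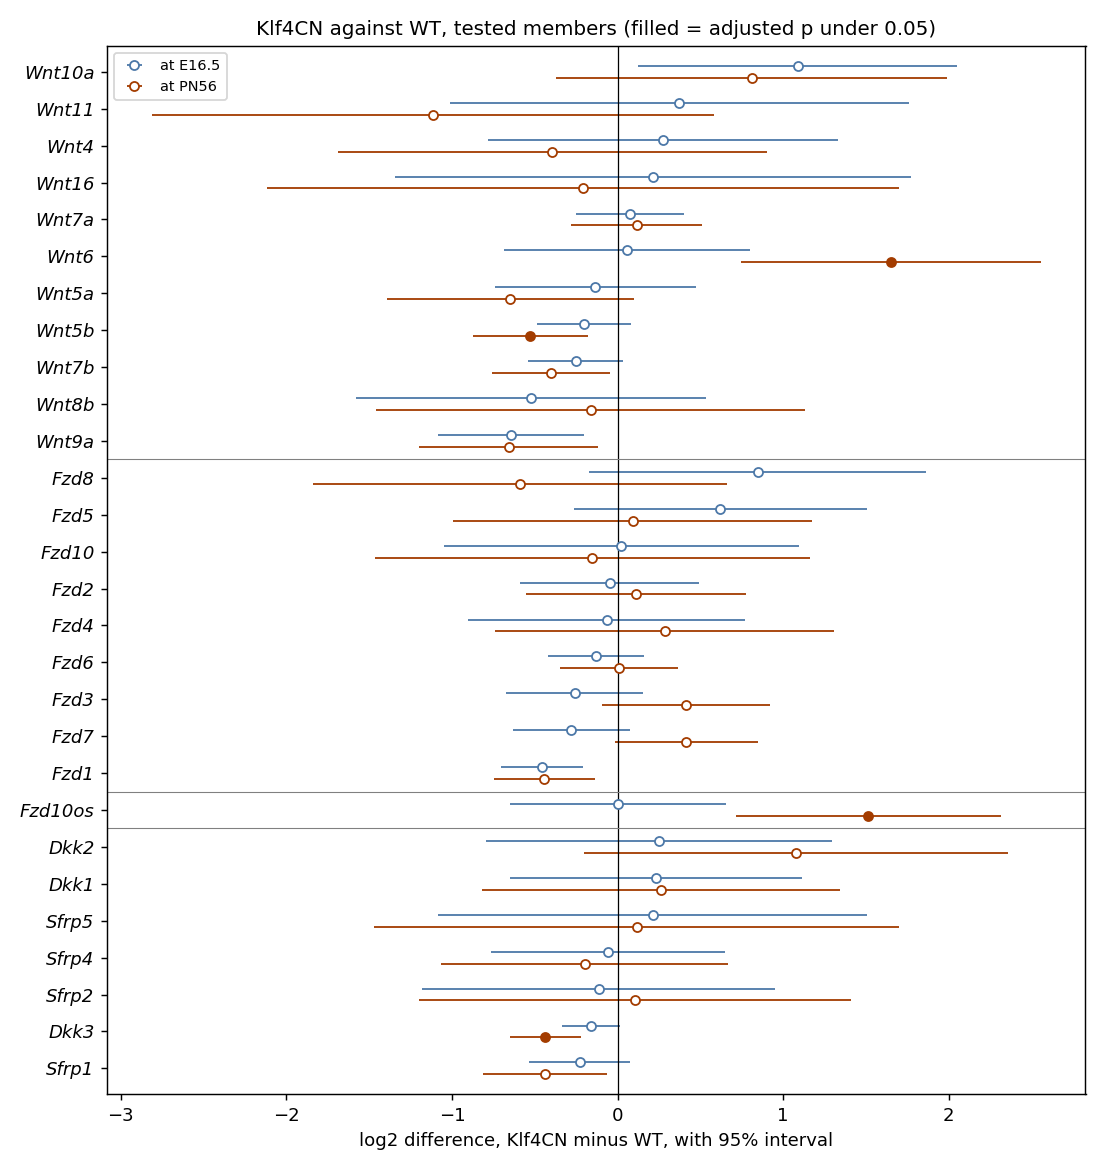
Log2 difference between lenses labelled Klf4CN and WT for each of the 28 tested members, at E16.5 and at PN56, with 95% confidence intervals from the limma fit and filled points for called members. No point is filled at E16.5; at PN56 Wnt6 (1.65) and Fzd10os (1.51) are filled on the right, and Dkk3 (-0.44) and Wnt5b (-0.53) on the left.

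At PN56, 4 of 28 members (14.3%) were called between genotypes, 2 higher and 2 lower under the Klf4CN label, against 13.1% of all genes (6.08% higher and 6.99% lower). The share of members called was near the background. Groups did not overlap for 15 of 28 members (53.6%), against 50.7% of all genes. The higher ones were Wnt6 and Fzd10os, and the lower ones were Dkk3 and Wnt5b. No Frizzled receptor was called among 9 (median 0.09), against 1 ligand higher and 1 lower among 11 (median -0.39) and 1 antagonist lower among 7 (median 0.11). The median over all genes was -0.06.

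Wnt6 read 21.9 and 70.6 on the PN56 WT arrays and 130 and 205 on those labelled Klf4CN. The latter lay within or above the E16.5 range of 124 to 168, and the former lay below it. The log2 difference was 1.65 ± 0.42 (adjusted p = 0.0225). It was lost without PN56 WT array 1 (1.05, adjusted p = 0.115) and without PN56 Klf4CN array 2 (1.35, adjusted p = 0.130). Of 6 surface epithelium markers, all on the array and 3 past the filter, the summed signal was 379 and 552 on the WT arrays and 623 and 784 on those labelled Klf4CN. Krt15 alone read 149 and 25.6 against 336 and 378, and without it the sums overlapped, at 231 and 527 against 287 and 406. The part of these markers in the Wnt6 result was not tested. Wnt10a, the neighbour of Wnt6, was dim, at 65.5 and 71.7 against 189 and 91.1, and did not pass the test (0.81 ± 0.54, adjusted p = 0.362).

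Fzd10os read 69.2, 68.3 and 83.4 in E16.5 WT, 65.6, 95.2 and 63.5 in E16.5 Klf4CN, 57.9 and 90.6 in PN56 WT, and 239 and 236 in PN56 Klf4CN. Both PN56 arrays labelled Klf4CN stood above the other 8. The difference from WT at PN56 was 1.51 ± 0.37 (adjusted p = 0.0184), and with age under the Klf4CN label it was 1.499 ± 0.33 (adjusted p = 0.0024). The genotype call was lost without PN56 WT array 1 (1.25, adjusted p = 0.081), PN56 Klf4CN array 1 (1.51, adjusted p = 0.051) or PN56 Klf4CN array 2 (1.52, adjusted p = 0.069). Fzd10, whose gene lies 418 bases from Fzd10os, read 100 and 244 against 203 and 96.2, so its groups overlapped (-0.15, adjusted p = 0.898).

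Dkk3 was lower under the Klf4CN label at PN56, at 27130 and 24350 against 35849 and 33828, by 0.44 on the log2 scale (SE 0.10, adjusted p = 0.0131). Without PN56 WT array 1 the value was -0.40 (adjusted p = 0.069), and without PN56 Klf4CN array 2 it was -0.36 (adjusted p = 0.073). The second Dkk3 probe set gave 0.12. Other bright probe sets were lower too: the 3' control probe sets of Actb, Gapdh and the CreX spike differed by -0.39, -0.21 and -0.58, and their part in the Dkk3 result was not tested. With arrays centred on their medians the Dkk3 value was -0.31 (adjusted p = 0.231). Wnt5b, at 1132 and 811 against 1425 and 1353, was lower by 0.53 (SE 0.16, adjusted p = 0.0481), close to the threshold. It was lost on leaving out any array but PN56 Klf4CN array 1, with values from -0.56 to -0.29 and adjusted p up to 0.272. Its second probe set gave -0.47.

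**Figure D5:**
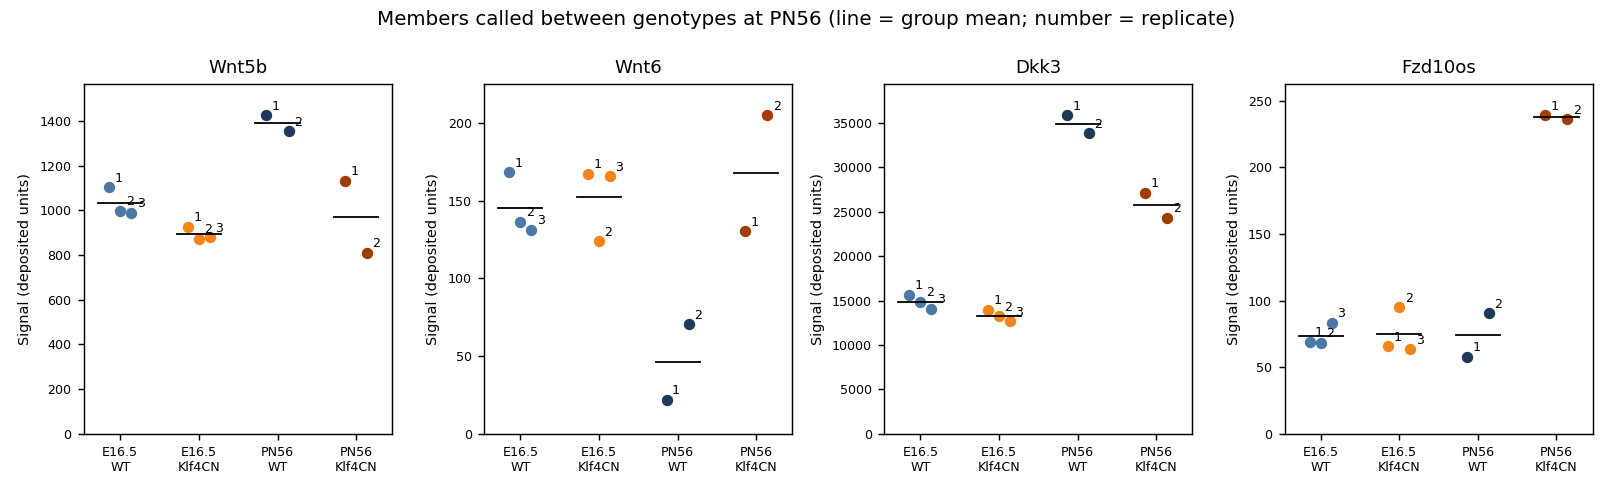
Signals of the 4 members called between genotypes at PN56 (y axis, linear, 1 panel per gene), with 1 point per array in each of the 4 groups and a line at the group mean. Wnt6 and Fzd10os are higher and Dkk3 and Wnt5b lower on both PN56 arrays labelled Klf4CN than on both PN56 WT arrays. At E16.5 Dkk3 and Wnt5b are also lower on every array labelled Klf4CN, by smaller log2 differences (-0.16 and -0.20). For Wnt6 and Fzd10os the E16.5 genotypes overlap (0.06 and 0.005).

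Fzd1, Wnt9a and Sfrp1 were below WT on every array labelled Klf4CN at both ages, without passing the test at either. Dkk3 and Wnt5b were below WT in the same way and were called at PN56 only. Wnt10a was above WT at both ages and not called. The share of all genes with such a pattern was not counted. For the brightest probe set of Sfrp1 the differences were -0.23 at E16.5 and -0.44 at PN56 (limma adjusted p = 0.9997 and 0.116). For Fzd1 the differences were -0.46 at E16.5 and -0.44 at PN56 (adjusted p = 0.662 and 0.0577), and for Wnt9a they were -0.64 and -0.66 (adjusted p = 0.937 and 0.104). Without PN56 Klf4CN array 1 the PN56 value of Fzd1 was -0.57 (adjusted p = 0.036), and without E16.5 Klf4CN array 2 that of Wnt9a was -0.66 (adjusted p = 0.046). Over the 28 members, 17 had the same sign at both ages, against 51.3% of all genes, and these comparisons share no array.

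The genotype effect did not differ between ages for any member by the interaction test (0 of 28 called with limma), against 4.61% of all genes called. At an unadjusted limma p under 0.05 there were 4 of 28 members, against 2738 of all 13444 genes. The 4 were Fzd10os (1.51, adjusted p = 0.094), Wnt6 (1.59, adjusted p = 0.118), Fzd7 (0.69, adjusted p = 0.149) and Fzd3 (0.67, adjusted p = 0.230). The changes seen at PN56 alone are therefore not shown to be particular to that age. Without PN56 WT array 2 the interaction was called for Wnt6 (2.19, adjusted p = 0.027) and Fzd4 (1.34, adjusted p = 0.046).

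Several genes have more than 1 probe set, and these did not always move alike. Of 20 further probe sets, from 14 member genes and with a mean signal past the filter, 15 had the sign of the brightest one for age in WT, 13 for age under the Klf4CN label, 12 for genotype at E16.5 and 10 for genotype at PN56. For members called with age, 9 of 12 and 7 of 9 shared the sign. Averaging all probe sets of a gene, dim ones included, ended the age calls of Wnt7a (0.30 in WT and 0.24 under the Klf4CN label, adjusted p = 0.360 and 0.476), Fzd3 (-0.41 and -0.16, adjusted p = 0.085 and 0.509) and Fzd6 (0.46 and 0.60, adjusted p = 0.127 and 0.056). It also ended those of Wnt6 and Wnt5b in WT (-0.80 and 0.37, adjusted p = 0.110 and 0.052), of Wnt9a under the Klf4CN label (0.45, adjusted p = 0.194), and the 4 genotype calls at PN56 (adjusted p from 0.072 to 0.283). The same averaging gave age calls to Sfrp1 (0.45 in WT and 0.53 under the Klf4CN label, adjusted p = 0.0105 and 0.0047), Wnt7b (1.396 and 1.09, adjusted p = 9.01e-05 and 5.9e-04) and, in WT, Wnt5a (1.59, adjusted p = 0.0025). Sfrp2 has 1 probe set, and Fzd2, Fzd7 and Dkk3 kept their calls with age. At PN56 a further probe set of Sfrp1 was higher under the Klf4CN label by 0.68 (adjusted p = 0.0039 with every probe set tested by itself), where the brightest was at -0.44. Of Fzd2, a further probe set was higher by 1.75 (adjusted p = 0.0074), where the brightest was at 0.11. It read 12.5 and 14.9 in PN56 WT, under the offset of 16, against 106 and 66 under the Klf4CN label. The remaining Fzd2 probe set, with a mean of 329, was at -0.88. Of Fzd3, a further probe set was lower by 0.68 (adjusted p = 0.037), where the brightest was at 0.41.

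Genes that work with the family were read from 6 lists, with 76 of 78 genes on the array and 65 tested. In WT 11 were higher and 24 lower at PN56 (16.9% and 36.9%, against 25.8% and 30.9% of all genes; median -0.25). Under the Klf4CN label 10 were higher and 31 lower (15.4% and 47.7%, against 22.3% and 30.8% of all genes; median -0.60). The counts of single lists that follow are to be read against the same shares. Among genes of Wnt release and other secreted modulators, 4 rose and 1 fell of 12 in WT, and 3 rose and 3 fell under the Klf4CN label. Wls, the carrier that takes Wnts to the cell surface, rose by 2.01 ± 0.10 in WT and 2.00 ± 0.10 under the Klf4CN label (adjusted p = 9.83e-09 and 1.31e-08). Porcn, the enzyme that adds the lipid to Wnts, rose by 0.85 and 1.76 (adjusted p = 0.0108 and 7.04e-05), the first not without PN56 WT array 1 (0.74, adjusted p = 0.067). Of 6 co-receptors and alternative receptors, 2 fell in WT and 4 under the Klf4CN label, with none higher. Lrp6 fell in both (-1.26 and -1.002, adjusted p = 4.59e-05 and 3.0e-04), and Ptk7, a polarity receptor, fell in both (-2.84 and -2.08, adjusted p = 2.0e-04 and 0.0020; the second was -1.25, adjusted p = 0.026, without PN56 Klf4CN array 2).

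Of 21 genes of cytoplasmic and nuclear transduction, 2 rose and 9 fell in WT, and 3 rose and 13 fell under the Klf4CN label. Tcf7l2, a TCF factor that binds beta-catenin, fell in both (-3.11 and -2.86, adjusted p = 5.57e-08 and 1.35e-07). Of 10 known target genes of beta-catenin, 1 rose and 5 fell in each genotype. Cd44, which encodes a hyaluronan receptor, rose by 3.68 and 3.23 (adjusted p = 2.24e-07 and 7.76e-07), while Myc, a growth regulator, fell (-3.43 and -3.18, adjusted p = 4.25e-05 and 8.49e-05). Axin2, named after its values were seen because it is a widely used readout of this signal, stood at -0.22 and 0.20 and was called in neither. Of 12 planar cell polarity genes, 3 rose and 5 fell in each genotype, with Vangl2, a core membrane protein of that system, lower in both (-2.25 and -1.73, adjusted p = 5.10e-06 and 5.22e-05). Of 4 tested R-spondin receptors and Frizzled turnover genes, 1 rose and 2 fell in WT, and 1 fell under the Klf4CN label.

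Between genotypes at E16.5, 0 of the 65 were called. At PN56, 5 were lower (7.69%, against 6.99% of all genes) and 0 higher (against 6.08%) under the Klf4CN label. Rspo1, a secreted protein that raises Frizzled levels at the cell surface, read 4465, 4396 and 4558 in E16.5 WT, 4522, 3904 and 4335 in E16.5 Klf4CN, 4811 and 4533 in PN56 WT, and 2422 and 2007 in PN56 Klf4CN. Both PN56 arrays labelled Klf4CN lay below the other 8. Rspo1 was lower by 1.08 (SE 0.12, adjusted p = 2.2e-04), and its interaction with age was called (-1.002 ± 0.15, adjusted p = 0.0047), 1 of 65. The other 4 were Ror1, a Wnt5a receptor (-0.90, adjusted p = 0.0024), Tle3, a co-repressor of TCF factors (-0.67, adjusted p = 0.0198), Dvl1, a scaffold that relays the Frizzled signal (-0.54, adjusted p = 0.0436), and Ppard, a nuclear receptor (-1.56, adjusted p = 0.0196). Rspo1 and Ror1 stayed called on leaving out each array in turn. The PN56 calls of Tle3 and Ppard were lost without PN56 WT array 1 (-0.73 and -1.60, adjusted p = 0.056 and 0.060), PN56 WT array 2 (-0.61 and -1.53, adjusted p = 0.081 and 0.055) or PN56 Klf4CN array 2 (-0.44 and -1.01, adjusted p = 0.132 and 0.105). That of Dvl1 was lost without any PN56 array or without E16.5 WT array 1 or E16.5 Klf4CN array 3 (-0.63 to -0.45, adjusted p up to 0.188).

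Members lie close to each other in 5 places of the GRCm38.p6 assembly, counting gaps under 100 kb. Wnt6 and Wnt10a are 6.7 kb apart on chromosome 1, Wnt3a and Wnt9a 16.1 kb apart on chromosome 11, and Wnt1 and Wnt10b 11.6 kb apart on chromosome 15. Wnt3 and Wnt9b overlap on chromosome 11, and Fzd10os lies beside Fzd10 on chromosome 5. Both members passed the filter in 2 of these pairs, Wnt6 with Wnt10a and Fzd10 with Fzd10os, and in each the called gene had a neighbour that was not called. Wnt9a, which rose with age, lies beside Wnt3a, which read 5.6 to 121.6 and was under the filter.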

How the data were processed

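Whole mouse lens RNA was measured on 10 arrays of 1 colour, with 45101 probe sets each. The authors deposited linear intensities, made with GCOS 1.4 per the submitters' processing notes, which were the only source for that step. On each array the mean after trimming 2% at each end was 500. No detection call was used.

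Of the probe sets, 64 were controls, 34945 carried 1 gene symbol, 932 several and 9160 none; 34741 were matched to RefSeq (GRCm38.p6). Signals were tested as log2(signal + 16), so folds of dim genes are understated. Genes whose mean signal reached the 40th percentile of all probe sets (54.06) were tested: 13444. One limma fit (version 3.58.1, R 4.3.3; eBayes with an intensity trend, two-sided) held all 10 arrays and 4 group means, so that the pairs of PN56 arrays borrow their spread from the others. Its adjusted p-values are printed throughout, and the fit was tested on simulated data. The number of arrays limits the precision.

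Members called in any of the 5 comparisons, and the 3 brightest of each role, are given array by array. Other pathway genes named are, per list, up to 4 of smallest p for genotype and 3 for age. The members, lists and tests were chosen with earlier results of these data known. Alternatives were other scalings, offsets, filters and probe set rules, no trend, array weights, the compared groups alone, the replicate number as a block, and leaving out each array in turn.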

Additional observations from a re-analysis of the deposited data

How the results depend on the processing

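At E16.5 the count of members called between genotypes was 0 under all 23 alternatives, with 1 to 6 members at an unadjusted p under 0.05. At PN56, where 4 were called, 2 were called with arrays centred on their medians (2 higher, 0 lower), 2 with a filter at the 60th percentile and 2 without the intensity trend. The count was 0 with probe sets averaged per gene, with array weights and with only the compared groups fitted (5, 6 and 9 at an unadjusted p under 0.05, limma). Leaving out 1 array gave 0 to 6: 0 without PN56 WT array 1 or PN56 Klf4CN array 2 (7 at an unadjusted p under 0.05 in each), and 6 without PN56 Klf4CN array 1. For the interaction, where 0 were called, 1 was called with quantile normalization (Fzd10os, 1.90) and 1 with every probe set by itself (a further Sfrp1 probe set, 0.74), and 0 to 2 on leaving out 1 array; fitting only the compared groups gives no interaction. Both counts with age stayed within 1.5 times of their values under every alternative, 10 to 17 in WT and 10 to 12 under the Klf4CN label on leaving out 1 array.

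Of 29 called differences of single members, 10 kept their call and direction under every alternative, and over 661 values 64 lost the call and 4 reversed. The reversed ones were age values: Fzd1, at 0.23 in WT and 0.25 under the Klf4CN label, and Fzd4, at 0.32 in WT, with probe sets averaged per gene, and Wnt5b, at -0.091 in WT, with arrays centred on their medians. The cause was not tested. One alternative, leaving out both E16.5 arrays numbered 2, was chosen after seeing the data.

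Deviations of same-numbered E16.5 arrays correlated at 0.27, 0.24 and 0.05, and those of differently numbered E16.5 arrays from -0.28 to 0.06. At PN56 the values were 0.04 and -0.04. With 2 arrays per group they are equal in size by construction, so they cannot show a pairing. Whether same-numbered arrays share a batch was not tested. With the replicate block the counts were 0 at E16.5, 4 at PN56, 0 for the interaction, 16 for age in WT (14 of them called without it) and 10 for age under the Klf4CN label. Signals near background limit Dkk2, Fzd8 and Wnt6, whose folds move with the offset. Sfrp2 was also near the filter at PN56, at 34 to 59.9. Its age value in WT ran from -4.64 to -3.36 over the alternatives.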
